A study of Mus musculus with 3 samples.

Results

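The regions described here are stretches of open chromatin at the ends of protein-coding genes that carried a peak in every library of the study. Peaks of the 3 deposited lists were merged where they overlapped by 1 bp or more. A merged region on chromosomes 1 to 19 or X was kept when all 3 lists had a peak in it and its midpoint lay within 1 kb of the start or the end of a protein-coding gene in the RefSeq table of GRCm38.p6. This gave 12196 gene-end regions, which were 29.1% (95% Wilson interval 28.6 to 29.5%) of the 41957 regions shared by all lists and 9.34% of the 130604 merged regions. After the shared regions had been moved by 100 kb, 5.15% had a midpoint that close to a gene end. The regions were thus chosen by position and by their presence in every list, so that presence is no finding, and their scores are given as descriptions without tests.

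Open chromatin was measured by ATAC-seq, in which a transposase inserts sequencing adapters into accessible DNA, in CGR8-derived embryonic stem cells of the mouse, grown with LIF and 2 kinase inhibitors. SES4.1 cells carried an inducible Halo-Sox2 transgene and received 300 ng/mL doxycycline for 20 h, and SES5.1 cells carried inducible Halo-Sox2a, which the labels do not describe further, and received 70 ng/mL for 20 h. Both lines were stained with a fluorescent Halo ligand and sorted through a common intensity gate, whereas the SES11 control line held no inducible transgene and its labels give neither a doxycycline dose nor a stain or sort. Each group was 1 library of 1 line, so line, dose, sort and transgene cannot be told apart, no p-value was computed, and a difference below is one between libraries. Sequencing depth is unknown, and all intervals cover counting error only.

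The start of a gene carries its promoter, where RNA polymerase II and the general transcription factors assemble. In mammals many promoters, among them those of most widely used genes, lie in CpG islands, which are rich in the CG dinucleotide, mostly free of DNA methylation and open in nearly all cell types. Promoters of tissue-specific genes are more often poor in CG and more often hold a TATA box. Sox2 is an HMG-box factor of pluripotent and neural cells that is known for binding distal enhancers, often beside Oct4 (Pou5f1).

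The sequences below show promoters of genes described further on, the first 3 with like ranks in every library and the others with ranks that differed, and in both sets the number of CG varied. Each is the 120 bases before the annotated start, 5′ to 3′ on the strand of the gene, from RefSeq's promoter table of GRCm38.p6, with every CG in capitals.
Klf2: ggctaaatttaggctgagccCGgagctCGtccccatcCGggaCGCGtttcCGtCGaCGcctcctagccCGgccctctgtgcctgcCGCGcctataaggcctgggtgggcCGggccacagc
Zfp42: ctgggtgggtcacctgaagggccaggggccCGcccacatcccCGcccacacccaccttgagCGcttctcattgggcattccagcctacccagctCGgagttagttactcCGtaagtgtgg
Desi2: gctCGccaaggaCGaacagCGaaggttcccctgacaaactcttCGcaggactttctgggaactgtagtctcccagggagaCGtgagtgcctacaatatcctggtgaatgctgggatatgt
Fgf4: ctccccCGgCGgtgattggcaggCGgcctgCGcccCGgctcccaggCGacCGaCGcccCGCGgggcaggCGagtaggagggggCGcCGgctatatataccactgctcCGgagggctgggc
Sox2: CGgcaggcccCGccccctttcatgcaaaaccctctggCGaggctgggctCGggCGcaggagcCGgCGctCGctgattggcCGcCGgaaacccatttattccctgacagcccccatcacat
Tcl1: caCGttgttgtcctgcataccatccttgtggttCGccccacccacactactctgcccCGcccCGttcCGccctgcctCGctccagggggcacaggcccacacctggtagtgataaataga
Gm1070: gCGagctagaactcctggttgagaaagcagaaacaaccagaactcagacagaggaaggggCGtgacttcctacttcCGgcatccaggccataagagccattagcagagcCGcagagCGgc
Arhgef38: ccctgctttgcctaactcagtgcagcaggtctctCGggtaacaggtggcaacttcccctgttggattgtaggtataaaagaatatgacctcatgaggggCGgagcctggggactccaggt

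These stretches lie at chr8:72318942-72319061 on the plus strand for Klf2, chr8:43307010-43307129 on the minus strand for Zfp42 and chr1:178187297-178187416 on the plus strand for Desi2. Those of Fgf4 and Sox2 are chr7:144861266-144861385 and chr3:34649875-34649994, both on the plus strand. Tcl1 is at chr12:105222738-105222857 on the minus strand, Gm1070 at chr6:71293645-71293764 on the plus strand and Arhgef38 at chr3:133234950-133235069 on the minus strand. The stretch of Klf2 holds 12 CG and that of Fgf4 14, against 2 in that of Arhgef38, which also holds a TATA box match (tataaa). Peaks of all 3 libraries covered all 120 bases for Klf2, Zfp42, Desi2, Fgf4 and Gm1070. At Arhgef38 the Halo-Sox2 peak covered 18 of the 120 bases and the peaks of the other libraries covered all of them, and at Tcl1 the Halo-Sox2 peak covered 52 bases, the Halo-Sox2a peak 120 and the control peak 109.

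Gene-end regions were mostly gene starts. Of the 9766 regions beside genes whose strand was known, 9136 (93.5%, 93.0 to 94.0%) had their midpoint within 1 kb of a start, and 630 lay at a far end only. For the other 2430 regions the strand was not known. Starts are those of the gene table, so a far-end region can hold another promoter of its gene. The far-end region of Utf1 covered all 120 bases before a RefSeq promoter start in every library. The midpoint lay a median of 119 bp into the gene from the start (quartiles 19 bp upstream and 287 bp downstream), and 72.1% of start regions were centred at the start or downstream of it. Starts of genes on both strands lay near 856 start regions, as at the shared promoter of Fto, an RNA demethylase, and Rpgrip1l, a protein of the ciliary transition zone.

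In all, 12816 of 21631 protein-coding genes (59.2%) had such a region at an end, and 14546 (67.2%) had a region of at least 1 list there. Of 17274 gene starts with a known strand, 9902 (57.3%) were held by a region of all 3 lists, 6340 (36.7%) had no region of any list, and 1032 (5.97%) had regions of some lists only or separate regions. In this last group 261 starts had a region of Halo-Sox2a and control without Halo-Sox2, 179 of Halo-Sox2 alone and 177 of the control alone. A further 175 starts had one of Halo-Sox2 and Halo-Sox2a without the control, 122 of Halo-Sox2a alone, and 97 of Halo-Sox2 and control without Halo-Sox2a. Nearly all gene starts thus fell into the held-by-all or held-by-none classes, and no single pattern of partial presence took more than 261 of them. Only the outermost ends of each gene in the table were used, so a gene without a region there can hold one at another promoter. A RefSeq promoter window lay within 1 kb of the start for 15534 of the 17274 genes with a known strand.

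Gene-end regions stood high in every list and were wide. The authors' score, which is comparable within a list only, had a median over gene-end regions of 314 with Halo-Sox2, 263 with Halo-Sox2a and 195 in the control. To set libraries side by side, each shared region was given its percentile rank among the 41957 shared regions in each library, where 100 is the highest score. The median rank of gene-end regions was 65.2 with Halo-Sox2, 64.6 with Halo-Sox2a and 68.2 in the control. Shared regions inside genes but away from their ends had medians of 42.7, 43.7 and 40.5 in the same order, and those outside genes 42.7, 44.7 and 44.5. The height belonged to gene starts, with medians of 67.8, 67.8 and 71.1, whereas far ends stood at 35.4, 36.6 and 35.2, below the other shared regions. Start regions were also the widest and far-end regions the narrowest: the median was 1091 bp at starts and 721.5 bp at far ends, beside 771 bp inside genes and 750 bp outside them. The widest was at the start of Efna5, an ephrin ligand (3825 bp), followed by the starts of Jun, an AP-1 subunit (3540 bp), and Nrp1, a semaphorin and VEGF co-receptor (3407 bp).

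The share of gene-end regions grew with rank in each library, but Halo-Sox2 departed at the top. In the control, gene ends made up 11.7% of the lowest decile and 51.5% (50.0 to 53.0%) of the highest decile of shared regions. With Halo-Sox2a these shares were 17.2% and 46.6% (45.1 to 48.2%). With Halo-Sox2 the share was 11.04% in the lowest decile, reached 44.6% in the decile below the top and was 37.9% (36.4 to 39.3%) in the highest, where 1589 of 4196 regions were gene ends. In the highest hundredth gene ends were 33.9% with Halo-Sox2, 47.9% with Halo-Sox2a and 56.5% in the control. The top of the Halo-Sox2 ranking correspondingly held more regions inside genes, 29.5% of the highest decile against 23.8% with Halo-Sox2a and 20.7% in the control, and more regions outside genes, 32.7% against 29.5% and 27.8%. The order of the 3 libraries in the highest decile was the same under every alternative run.

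**Figure D1:**
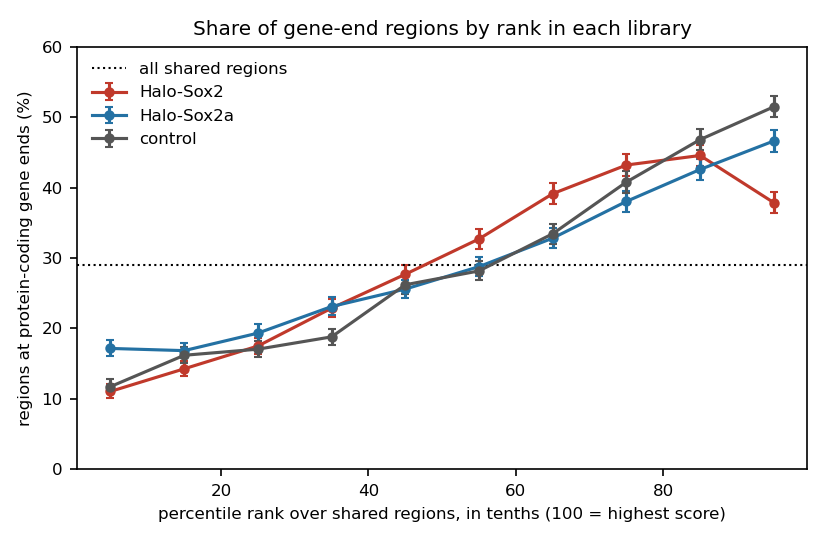
Share of gene-end regions (vertical axis, percent) in each decile of the percentile rank over the 41957 shared regions (horizontal axis), for the 3 libraries, with 95% Wilson intervals and a dotted line at the share over all shared regions. The lines climb over most of the range, that of Halo-Sox2 drops at the last step, and in the highest decile Halo-Sox2 (37.9%) lies below Halo-Sox2a (46.6%) and the control (51.5%).

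Between libraries the ranks of gene-end regions differed less than those of other shared regions. A region was counted as different when its rank in 2 libraries was 20 percentile points or more apart. Between Halo-Sox2 and control, 989 gene-end regions (8.11%) ranked higher with Halo-Sox2, where 17.6% of all shared regions did, and 1285 (10.5%) ranked lower, where 18.6% of all shared regions did. Between Halo-Sox2a and control, 676 (5.54%) ranked higher, against 14.1% of all shared regions, and 1371 (11.2%) lower, against 14.3%. Between the 2 induced lines, 1147 gene-end regions (9.40%) ranked higher with Halo-Sox2, against 14.4% of all shared regions, and 740 (6.07%) ranked higher with Halo-Sox2a, against 14.8%. The first pair of comparisons shares the control library, so their counts are not independent. The median difference was -1.92 points (-2.16 to -1.69) for Halo-Sox2 minus control, -1.74 points (-1.95 to -1.51) for Halo-Sox2a minus control and 0.025 points (-0.15 to 0.20) for Halo-Sox2 minus Halo-Sox2a. Over all shared regions these medians were -1.60, -0.51 and -0.39 points, so the first was near that of the background.

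The median of Halo-Sox2a minus control changed direction with the scale, and that of Halo-Sox2 minus control was negative on both scales. With percentiles taken within each whole list, where the lists differ in length, the median of Halo-Sox2a minus control was 0.30, with 785 gene-end regions higher and 624 lower. On that scale 480 were higher and 1642 lower with Halo-Sox2 than in the control, and 311 were higher and 1537 lower with Halo-Sox2 than with Halo-Sox2a. The whole-list scale moved the median of all shared regions to -5.22, 1.77 and -7.17 points in the 3 comparisons, so gene-end regions moved less than the background on it. The share 20 points apart in either direction was 17.4% of gene-end regions against 37.1% of all shared regions for Halo-Sox2 and control on that scale, and 18.6% against 36.1% on the first one.

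A rank near 100 leaves little room to differ, so the shares were also compared at like heights, a comparison chosen after the data were seen. Shared regions were sorted by their rank in the library that is not in the pair. Among regions ranked 80 to 100 with Halo-Sox2a, 5.10% of gene-end regions lay 20 points or more apart between Halo-Sox2 and control, against 33.0% inside genes and 34.7% outside genes. At middle heights, ranks 40 to 60, the shares were 27.0%, 47.1% and 52.3%. Among regions ranked 80 to 100 with Halo-Sox2, 3.84% of gene-end regions lay apart between Halo-Sox2a and control, against 32.8% and 31.2%. The gaps were narrower among regions ranked 0 to 20 with Halo-Sox2, with 25.2% of gene-end regions apart between Halo-Sox2a and control, 29.6% inside genes and 34.3% outside genes. Without sorting by height, 36.2% of the 630 far-end regions lay apart between Halo-Sox2 and control, close to the 36.1% of all shared regions, against 16.9% of start regions, which ranked higher.

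**Figure D2:**
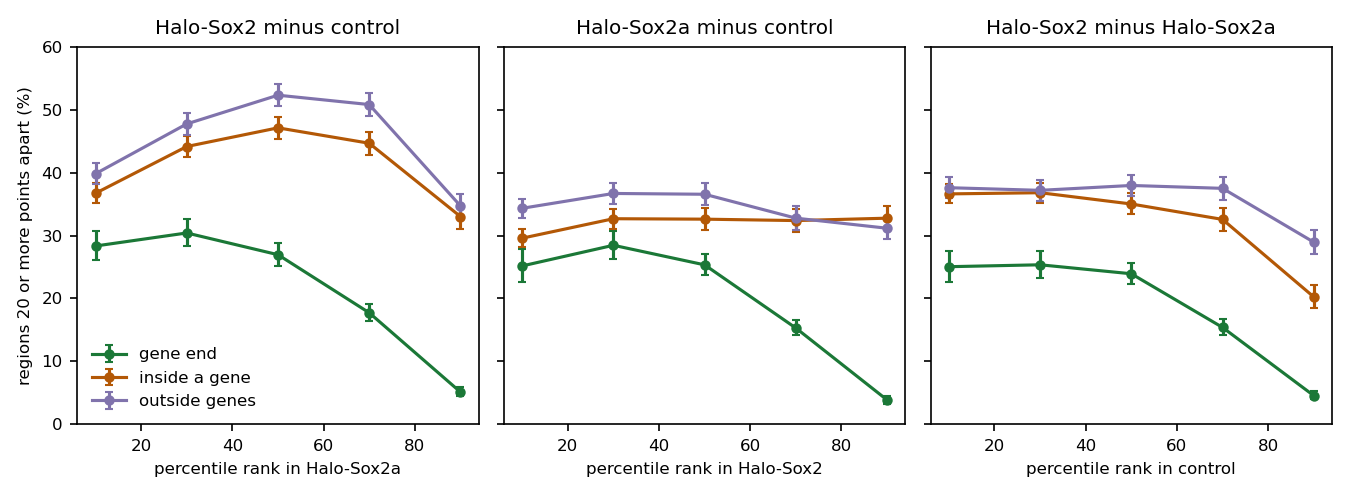
Share of regions whose ranks lay 20 points or more apart (vertical axis, percent, with 95% Wilson intervals) by rank in the library outside the pair (horizontal axis, 5 steps of 20 points), for shared regions at gene ends, inside genes and outside genes. In all 3 comparisons the gene-end line lies lowest at each step and drops to 5.10%, 3.84% and 4.53% at ranks 80 to 100.

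The CG content of the promoter set genes with a shared region apart. RefSeq promoter windows of 300 bases (250 before the start and 50 after) were used for 15534 genes whose window started within 1 kb of the gene start in the table. The CpG observed over expected ratio had a median of 0.780 (0.774 to 0.786) for the 9424 promoters with a shared region, 0.379 for the 874 with a region of some lists and 0.164 for the 5236 with none. Of promoters with a ratio under 0.2, 4.85% had a shared region, and of those with a ratio of 0.8 or more, 96.2% did. Klf4 and Efna5 stood at the CG-rich end, with 40 and 38 CG in the 300 bases, and Arhgef38 at the other, with 3.

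Among promoters that did have a shared region, CG-poor ones differed more between libraries. The share 20 points or more apart between Halo-Sox2 and control was 32.3% (25.7 to 39.8%) for the 167 promoters with a ratio under 0.2 and 12.9% (11.9 to 13.9%) for the 4364 with a ratio of 0.8 or more. For Halo-Sox2a and control these shares were 29.9% and 12.3%, and for Halo-Sox2 and Halo-Sox2a 28.1% and 11.2%. CG-poor promoters also ranked lower, with a median mean rank of 45.1 against 72.7. At like heights, with wider ratio classes, the direction was the same: among promoters ranked 40 to 60 with Halo-Sox2a, 39.0% (31.9 to 46.7%) of those with a ratio under 0.4 lay apart between Halo-Sox2 and control, against 23.0% (20.8 to 25.4%) of those with 0.6 or more. At ranks 20 to 40 these shares were 43.9% and 24.8%. Between Halo-Sox2 and Halo-Sox2a, at control ranks 20 to 40, the intervals overlapped, with 31.25% (23.9 to 39.7%) against 24.96% (21.8 to 28.4%).

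**Figure D3:**
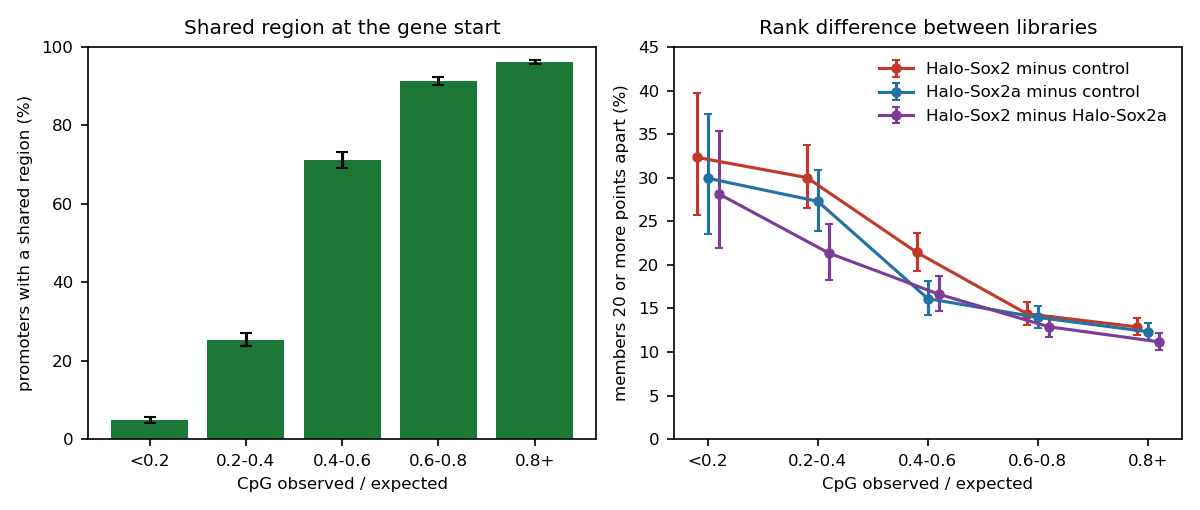
Left, share of promoters with a shared region (percent) by CpG observed over expected ratio. Right, share of promoters with a shared region whose ranks lay 20 points or more apart in each of the 3 comparisons, with 95% Wilson intervals on both sides. The left bars climb from 4.85% to 96.2%, and the right lines fall from 28.1 to 32.3% at the lowest ratio to 11.2 to 12.9% at the highest.

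Short motifs were searched on both strands of the 300-base windows, where a match is a string of letters and not a bound site. The GC box GGGCGG, the letters read by Sp1-family factors, was in 69.0% of promoters with a shared region, 9.85% of those without any region and 47.4% of all. Motifs of factors of broadly used promoters went the same way: NRF1 (GCGCNTGCG) was in 14.6%, 0.707% and 9.34%, ETS (CCGGAAGT) in 8.47%, 0.668% and 5.45%, and YY1 (AAGATGGCG) in 3.15%, 0.210% and 2.01%. BANP (CTCGCGAGA), CRE (TGACGTCA) and ZNF143 (CTACAATTC) were in 1.61%, 3.58% and 0.796% of promoters with a shared region and in 1.04%, 2.41% and 0.554% of all. The E-box CACGTG was in 10.6% against 8.11% of all. These motifs other than ZNF143 contain CG, so their shares move with the CG content given above.

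Other motifs without CG were no more common in shared promoters than in all promoters. The TATA letters TATAAA were in 6.44% of promoters with a shared region and 27.0% of those without any, and the CCAAT letters, read by NF-Y, were about as common in both, at 39.5% and 40.9%. Within the shared promoters, however, CCAAT went with height: the median mean rank was 77.8 with the letters and 64.9 without them, a wider gap than the 71.1 and 67.7 of the GC box. The SOX letters ATTGTT were in 4.94% of shared promoters, 17.1% of promoters without a region and 9.33% of all. The longer form CATTGTT, which contains the first, was in 1.55%, 6.57% and 3.41%, and the OCT letters ATGCAAAT in 1.59%, 2.18% and 1.77%. Shared promoters with ATTGTT had a median Halo-Sox2 minus control difference of -1.97 points (-3.36 to -0.82), against -2.16 without it. For Halo-Sox2a minus control it was -0.07 points (-1.33 to 0.55) with the letters and -1.70 without them. This contrast was not particular to the SOX letters: it was -0.25 against -1.66 for OCT and -0.22 against -1.67 for ZNF143. The GC box and TATA letters went the other way, at -1.74 against -1.42 and -3.30 against -1.54.

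Genes of general cell functions nearly all had a gene-end region. Their lists, like the others below, were written with earlier results of these data known, and 59.2% of all protein-coding genes had such a region. All 36 listed genes of respiratory complex I, 44 of 46 large-subunit ribosomal protein genes, 31 of 32 proteasome genes, 29 of 30 splicing factor genes, 24 of 25 spindle and kinetochore genes and 32 of 36 DNA replication genes had one. Replication genes ranked highest, with a median mean rank of 83.1 against 65.0 for all gene-end regions, led by Gins2, a subunit of the replicative helicase (mean rank 99.6), with Pola2, a subunit of DNA polymerase alpha, lowest at 22.1. Spindle genes followed at 80.5, from Spc25 (96.5) to Aurkb (41.8), and splicing factors at 74.3, from U2af2 (90.03) to Eftud2 (45.6). Complex I stood at 72.9, with Ndufa5 highest (95.2), ribosomal proteins at 70.9, from Rpl15 (94.3) to Rpl19 (7.75), and proteasome subunits at 67.0, from Psmd7 (95.5) to Psmd1 (39.8).

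Over all gene-end regions 8.11% ranked 20 points or more higher and 10.5% lower with Halo-Sox2 than in the control, and counts in these lists are to be read against those shares. Splicing factors had 2 higher and 4 lower of 29, proteasome genes 2 and 1 of 31, and spindle genes 1 and 1 of 24. In replication genes 1 of 32 ranked higher and 1 lower with Halo-Sox2 than in the control, the second being Orc3 of the origin recognition complex, with ranks of 61.9, 75.7 and 88.8 for Halo-Sox2, Halo-Sox2a and control. The first was Fen1, the flap endonuclease, at 80.9, 60.3 and 59.7. Of 44 ribosomal protein genes 5 were higher and 1 lower with Halo-Sox2, near the shares of all gene-end regions, among them Rpl12 at 53.4, 28.0 and 16.6 and Rpl36a at 74.5, 72.3 and 46.8. On the whole-list scale 2 were higher and 2 lower, where 480 and 1642 of all 12196 gene-end regions were. For Rpl12 Halo-Sox2a lay between the other libraries, 11.4 points above the control and 19.5 on the whole-list scale. For Rpl36a both induced lines lay above the control. Complex I had 0 of 36 genes higher and 3 lower with Halo-Sox2, of which Ndufs5 stood at 34.2, 49.5 and 70.5. Its median Halo-Sox2 minus control difference was -6.94 points and that of splicing factors -7.37, against -1.92 for all gene-end regions. On the whole-list scale these were -6.67 and -6.96, against -4.19.

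Most chromatin regulator genes also had a gene-end region. Polycomb genes, whose products write and read repressive histone marks, had a region in 29 of 30 cases, with a median mean rank of 60.9, from Ezh2, the H3K27 methyltransferase (92.7), to Kdm2b, the CXXC subunit that recruits a PRC1 variant (9.19). Their median difference was -8.97 points for Halo-Sox2 minus control and -8.34 for Halo-Sox2a minus control, and on the whole-list scale -11.5 and -2.12. With Halo-Sox2, 7 of 29 ranked 20 points or more lower than in the control and 0 higher, where 10.5% and 8.11% of all gene-end regions did. With Halo-Sox2a 5 ranked lower and 1 higher, where 11.2% and 5.54% did. Phc3, a PRC1 subunit, ranked 63.9 with Halo-Sox2, 43.0 with Halo-Sox2a and 85.0 in the control. Mtf2, a PRC2 cofactor, ranked 65.5, 56.2 and 85.7, so that for both genes the control was the highest library. Cbx7, a chromodomain reader, was the gene that went the other way with Halo-Sox2a, at 45.2, 61.1 and 37.2. These counts come from 29 genes in 3 libraries, and on the whole-list scale 4 were lower with Halo-Sox2 and 1 with Halo-Sox2a. On that scale 1642 and 624 of all 12196 gene-end regions were lower, so those 2 counts lay near the background.

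SWI/SNF remodelling genes had a region in 23 of 25 cases and a median mean rank of 53.4, from Actl6a (97.7) to Arid2 (6.39). DNA methylation genes had one in 12 of 15, with a median mean rank of 73.0, and the genes without one were the DNA methyltransferases Dnmt1 and Dnmt3a and the cofactor Dnmt3l. Dnmt3b, the other de novo enzyme, was the lowest of the 12 at a mean rank of 28.1, and Mbd3, a NuRD subunit, was the highest at 90.9. Uhrf1, which brings Dnmt1 to replicated DNA, ranked 52.2 with Halo-Sox2, 58.6 with Halo-Sox2a and 80.1 in the control. Tet3, a 5-methylcytosine oxidase, ranked 53.8, 35.4 and 20.9, in the opposite order.

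The cells' identity was checked on marker genes. Of 7 stem cell markers, Sox2, Zfp42, Klf4 and Tfcp2l1 had a gene-end region, with mean ranks of 53.7 to 98.0. Pou5f1 and Nanog each had a region of all 3 lists that reached within 1 kb of an end but was centred farther away, and Esrrb had none. Markers of other lineages also had gene-end regions, 3 of 4 for trophoblast, 3 of 4 for primitive endoderm, 3 of 3 for mesoderm, 3 of 3 for neural cells and 1 of 4 for fibroblasts. Their mean ranks ran from 3.19 at Sox17 to 63.2 at Eomes. Like Pou5f1 and Nanog, the fibroblast marker Col1a1 had a region of all 3 lists that reached within 1 kb of an end but was centred farther away. Presence of an open gene end therefore did not tell markers of stem cells from those of other lineages.

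Of 30 pluripotency regulators, 21 had a gene-end region, at a median mean rank of 67.9. Klf2, a naive-state Kruppel-like factor, had scores of 869 with Halo-Sox2, 572 with Halo-Sox2a and 381 in the control, and ranks of 95.6, 92.8 and 92.1. Zfp42, a marker of the naive state, ranked 96.2, 98.2 and 99.6, and Klf5 ranked 93.8, 96.2 and 96.2. These 3 regions were near the top of every library. Tbx3, a T-box factor of the naive state, ranked 85.0, 96.5 and 88.7, and Trim28, a corepressor of retroelements, ranked 78.8, 85.6 and 74.6. At the low end, Mycn, a Myc family factor, ranked 28.4, 6.43 and 1.36, and Tcl1, a cofactor of Akt, ranked 2.80, 31.7 and 9.80. For Mycn Halo-Sox2 was the highest library and for Tcl1 it was the lowest.

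With Halo-Sox2, 4 of the 21 ranked 20 points or more above the control and 0 below, where 8.11% and 10.5% of all gene-end regions did. They were Sox2, Mycn, Nr0b1, a nuclear receptor of naive cells (47.8 with Halo-Sox2, 38.8 with Halo-Sox2a and 24.1 in the control), and Tfcp2l1, a naive-state factor (58.3, 64.6 and 38.3). On the whole-list scale 1 was above and 2 below, where 480 and 1642 of all 12196 gene-end regions were. With Halo-Sox2a, 4 ranked above the control, which were Sox2, Tfcp2l1, Sall4 and Tcl1, and 2 below, which were Fgf4 and Lin28a, where 5.54% and 11.2% of all gene-end regions did. Both counts above the control include Sox2, whose reads are ambiguous in these lines. Sall4, a zinc finger factor, ranked 30.7, 70.8 and 46.8, with Halo-Sox2 below and Halo-Sox2a above the control. On the whole-list scale 3 were above and 1 below with Halo-Sox2a, where 785 and 624 of all 12196 gene-end regions were. Fgf4 is the growth factor that drives exit from the naive state and a known Sox2 and Oct4 target. Its start region ranked 36.4, 5.64 and 34.7, with Halo-Sox2a alone apart. Another region at an end of Fgf4 was held by Halo-Sox2a and control without Halo-Sox2.

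The 2 induced lines were also compared directly. Halo-Sox2 ranked 20 points or more above Halo-Sox2a at 2 of the 21 regulators (Fgf4 and Mycn) and below it at 5 (Sox2, Dppa4, Sall4, Tcl1 and Rif1), where 9.40% and 6.07% of all gene-end regions did. The 5 include Sox2 itself, whose reads are ambiguous in these lines. The median difference was -6.87 points, and -8.54 on the whole-list scale, on which the median of all gene-end regions was -4.74. On that scale 1 regulator was above and 3 below, where 311 and 1537 of all 12196 gene-end regions were, so the count below lay near the background. Dppa4, a chromatin factor of early embryos, ranked 39.6, 65.3 and 53.1, and Rif1, a replication timing factor, ranked 72.5, 94.6 and 90.2. The Sox2 region itself had scores of 400, 12707 and 120 and ranks of 74.3, 100 and 45.5. No base of the 120 before the Sox2 start lay under the Halo-Sox2a peak, whereas all of them lay under the peaks of the other libraries. Reads of a Sox2 transgene and of the gene cannot be told apart in these lists, so the Sox2 ranks are given without a reading.

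**Figure D4:**
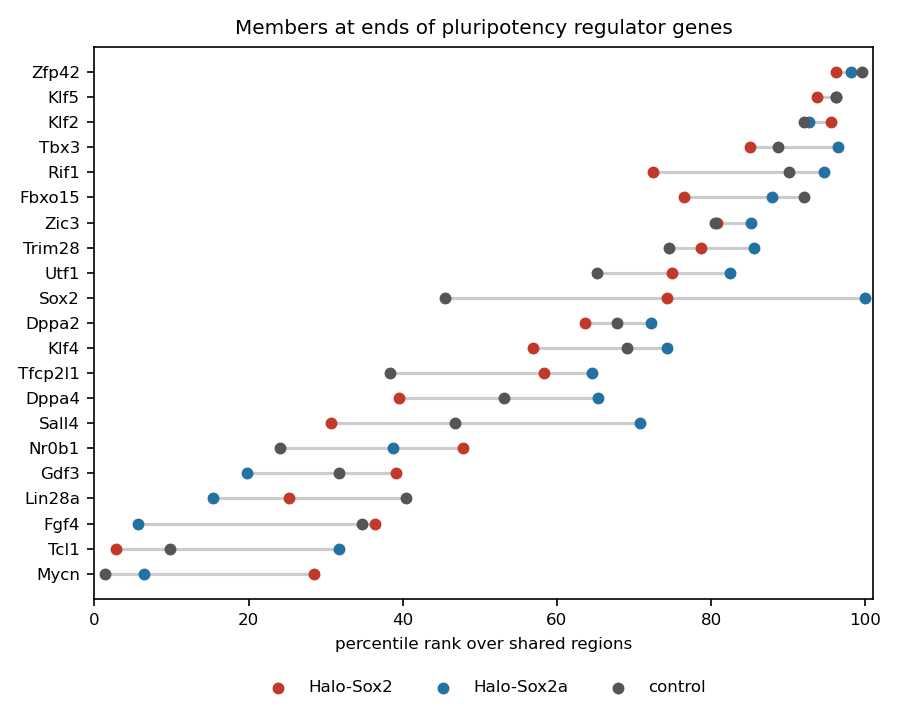
Percentile rank over shared regions (horizontal axis) of the gene-end region of each of the 21 pluripotency regulators that had one, with 1 point per library. Zfp42, Klf5 and Klf2 lie above 92 in all libraries, whereas Sox2, Fgf4, Sall4 and Mycn are spread widely.

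The other regulators had no gene-end region shared by all 3 lists. Nanog and Tdgf1, a Nodal co-receptor, had a region of Halo-Sox2a and control only. Dppa5a had a region of that pair and another of Halo-Sox2 and Halo-Sox2a. Prdm14, a naive-state repressor, had a region of Halo-Sox2 and Halo-Sox2a and another of Halo-Sox2a alone, and none of the control. Pou5f1, Esrrb, Dppa3, Nr5a2 and Zfx had no region centred within 1 kb of an end in any list. Promoters away from the outermost ends of these genes, if any, were not looked at.

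Lineage genes had gene-end regions in varying numbers, and for 6 lists the median mean rank lay below the 65.0 of all gene-end regions. The neural list had 16 of 20, with a median mean rank of 46.7, from Syt1, a synaptic vesicle protein (93.6), to Pax6 (18.3). Mesoderm genes had 10 of 12 (median 32.9), trophoblast 7 of 12 (22.6), primitive endoderm 7 of 12 (33.8), fibroblast 4 of 12 (24.5) and terminally differentiated tissue genes 5 of 30 (57.4). By mean rank the trophoblast list ran from Tead4 (67.8) to Hand1 (6.81), primitive endoderm from Lama1 (72.1) to Sox17 (3.19), mesoderm from Kdr (62.5) to Nkx2-5 (14.6) and fibroblast from Twist1 (35.5) to Twist2 (17.7). The tissue list ran from Pmel (99.5), whose region also lay at the start of Rab5b, to Acta1 (22.2). Neurod1, a neurogenic bHLH factor, ranked 65.3 with Halo-Sox2, 46.9 with Halo-Sox2a and 4.8 in the control, and Olig2, an oligodendrocyte and motor neuron factor, ranked 62.2, 35.6 and 26.8. Both were highest with Halo-Sox2. Of the 16 neural regions 3 were 20 points or more higher and 3 lower with Halo-Sox2 than in the control. Of all gene-end regions 8.11% and 10.5% were. Among trophoblast genes Gata3, with a region at its far end, ranked 2.09, 12.5 and 53.1. Krt18, a simple epithelial keratin, ranked 4.10, 2.5 and 38.3. Foxa2, an endoderm factor, ranked 20.0, 15.2 and 66.3, and Mixl1, a mesendoderm factor, 24.2, 39.3 and 69.6. These 4 genes, named after their values were seen, had the control above both induced lines. Over the whole lists, 0 of 7 trophoblast regions were 20 points or more higher and 2 lower with Halo-Sox2 than in the control. For primitive endoderm it was 1 and 1 of 7, and for mesoderm 0 and 1 of 10. These counts are also to be read against 8.11% and 10.5%. Gata6, the primitive endoderm factor, stood in the opposite order at 44.0, 27.4 and 10.6.

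Germline genes ranked lower with Halo-Sox2 than in the control by the list's median. A region was found at 15 of 25, and the median Halo-Sox2 minus control difference was -19.6 points, with 7 genes 20 points or more lower and 1 higher, where 10.5% and 8.11% of all gene-end regions did. The Halo-Sox2a minus control median was -4.91 points, with 4 lower and 1 higher, where 11.2% and 5.54% did. The list's median mean rank was 52.5, against 65.0 for all gene-end regions, and its counts were not compared at like heights. On the whole-list scale the median differences were -17.5 and -1.32. There 7 genes were lower with Halo-Sox2, where 1642 of all 12196 gene-end regions were. Sycp1, the transverse filament of the synaptonemal complex, ranked 6.40 with Halo-Sox2, 26.4 with Halo-Sox2a and 73.5 in the control, where its score was 219 against 46 with Halo-Sox2. Syce1, a central element protein of the same complex, ranked 32.7, 49.5 and 75.3, and Ddx4, the germ cell RNA helicase, 37.8, 32.9 and 69.6. Brdt, the testis bromodomain protein, ranked 12.0, 7.95 and 43.5. In these 4 genes both induced lines lay below the control. Rnf17, a Tudor protein of germ cells, ranked 29.9, 69.7 and 74.6, with Halo-Sox2 alone low, and Mael, a piRNA pathway factor, and Sycp2 were also lower with Halo-Sox2. The exception was Ddx25, a testis helicase, at 69.9, 69.3 and 36.3. Dazl, a germ cell RNA-binding protein, ranked high at 89.5, 69.8 and 79.9. By mean rank the list ran from Hormad1 (97.1), whose region was also the start of Golph3l, to Tdrd1 (9.12).

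The 4 gene-end regions with the highest mean rank were picked for standing high in all libraries, so their positions are descriptions. The region at the far end of Lars2, the mitochondrial leucyl-tRNA synthetase, was at positions 3, 2 and 1 among the shared regions of Halo-Sox2, Halo-Sox2a and control, with scores of 4859, 5775 and 4874 in 385 bp. That of Fto and Rpgrip1l stood at positions 18, 23 and 21 and that of Desi2 at 21, 28 and 18, and Zfp960, a zinc finger gene, completed the first 4 at 10, 14 and 11. Peaks were not filtered here against known sites of unusually high signal, so whether the Lars2 region is such a site was not tested.

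The regions with the greatest differences were picked by their differences, so their values are descriptions. Fras1, a basement membrane protein, had scores of 739 with Halo-Sox2, 195 with Halo-Sox2a and 20 in the control, and ranks of 92.5, 50.6 and 0.713. Slamf6, a receptor of immune cells, ranked 96.0, 76.9 and 5.77, Khdc1b 91.6, 75.0 and 4.8, and Fgf23, a phosphate-regulating hormone, 94.7, 55.1 and 12.2. Halo-Sox2a lay between the other libraries in these 4 regions, and the last 3 were far ends. Rnase9 at 99.7, 93.5 and 23.1 and Klkb1, plasma prekallikrein, at 97.3, 97.7 and 31.4 were also far ends, with both induced lines above the control.

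In the opposite direction, Arhgef38, a guanine nucleotide exchange factor, had scores of 46, 145 and 328 and ranks of 6.40, 37.4 and 88.1, at the CG-poor start printed above. Cabcoco1 ranked 4.10, 59.6 and 83.5, Ptp4a2, a phosphatase, 9.03, 56.7 and 80.3, and 1700016C15Rik 18.1, 38.5 and 95.3. Halo-Sox2a again lay between. Regions lowest with Halo-Sox2a were Clec12a, a myeloid lectin, at 32.7, 21.9 and 94.0, Tmod2, a brain tropomodulin, at 76.2, 19.7 and 90.8, Eef1akmt1 at 44.3, 21.0 and 89.2 and Slc5a7, the choline transporter, at 44.3, 15.03 and 82.9.

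The induced lines were farthest apart at Naa30, an acetyltransferase subunit (93.4 with Halo-Sox2, 3.64 with Halo-Sox2a and 12.2 in the control), Pxdc1 (85.3, 0.776 and 8.13), Scn3a, a sodium channel (89.4, 7.95 and 19.7) and Brk1, a WAVE complex subunit (77.7, 7.95 and 2.32). Here Halo-Sox2a lay near the control. In the other direction were 2410137M14Rik (10.2, 84.1 and 66.8), the ends of Znrf1 and Ldhd (30.7, 98.98 and 97.3), Gm2a, the GM2 activator (12.0, 73.9 and 71.9), and Gm1070 (29.9, 95.9 and 54.9). At the first 3 Halo-Sox2 alone stood apart, and at Gm1070 the 2 induced lines lay on opposite sides of the control. Such opposite shifts of 20 points or more were found at 27 gene-end regions, 16 with Halo-Sox2 above and Halo-Sox2a below the control and 11 the other way, where 0.932% of all shared regions had one.

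**Figure D5:**
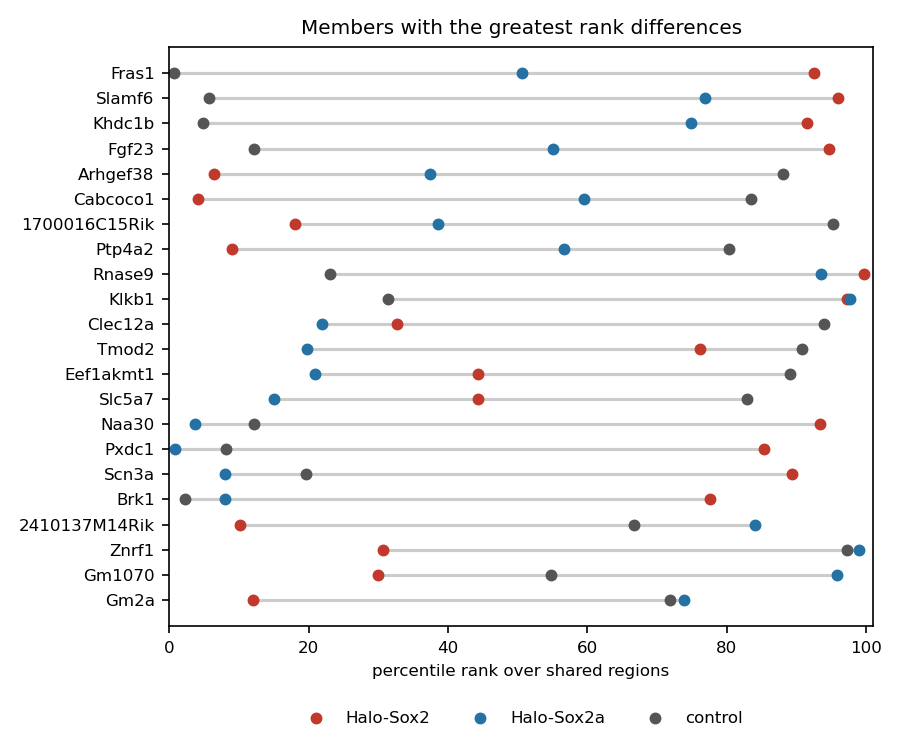
Percentile rank over shared regions (horizontal axis) in each library for the 22 gene-end regions with the greatest rank differences, chosen for those differences. Halo-Sox2a lies between the other libraries for the 8 uppermost genes, near the control for Naa30, Pxdc1, Scn3a and Brk1, and on the far side of the control from Halo-Sox2 for Gm1070.

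The 1 kb limit cut through regions of ordinary height. Just inside it, at 1000 bp, were regions of Col14a1 (ranks 16.8, 3.06 and 6.13 for Halo-Sox2, Halo-Sox2a and control), Atp23 (77.8, 62.7 and 72.9) and Bcl2l14 (44.3, 21.9 and 22.2). Just outside it, at 1001 bp, regions on chromosomes 7, 2 and 13 ranked 36.0, 49.5 and 44.5, then 58.8, 51.5 and 49.9, then 65.5, 61.5 and 86.8.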

How the data were processed

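Mouse embryonic stem cells were profiled by ATAC-seq, with 1 library each for Halo-Sox2, Halo-Sox2a and control, as grouped by the labels. The submitters' processing notes name STAR, SAMtools, MACS2 3.0.0a7, MACS3, deepTools 3.3.0 and the build mm10, with no role or order. Peak threshold and any shift of read ends are not given in the sources used here. The deposited lists hold 88898, 83995 and 72638 peaks, and each peak has a score from the authors, a whole number of unstated scale with a lowest value of 13 in every list. Scores served to rank peaks within a list, and a region took its highest score. Depth is unknown.

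Peaks were merged, ranks taken over the shared regions and intervals computed with Python 3.11.15, pandas 2.3.3, numpy 2.4.6 and scipy 1.17.1 (Wilson for shares, binomial order statistics for medians, 95%). The scripts were tested on simulated data. Positions and promoter sequences came from RefSeq tables of GRCm38.p6, matched by symbol, with 17274 of 21631 protein-coding genes having a strand and all 428 listed genes found. Reads were not analysed here, so peak sequences outside the promoter windows were not used.

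Members and lists were chosen with earlier results of these data known. Named regions are the 4 with the highest mean rank, the 4 with the greatest difference in each direction of each comparison, the 3 widest, the 3 on either side of 1 kb, every pluripotency regulator with a region, and the highest and lowest of each other list, of which 1 is not reported here. Other genes were named after their values were seen. Alternatives changed the distance, overlap, list size, chromosomes, score summary, rank scale and threshold.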

Additional observations from a re-analysis of the deposited data

Results flagged for a closer look

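The start of Gm1070 had a rank difference to the control of -24.95 percentile points with Halo-Sox2 and of 41.03 points with Halo-Sox2a, so that the induced libraries lay on opposite sides of the control. With 1 library per group this difference was not tested.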

How the results depend on the processing

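No paired analysis was possible because each group had 1 library, and there was no replicate to leave out. Over all alternatives, 88 values stayed within the counting error or 1.5 times the main count, 52 moved by more and 1 changed direction. The share of gene-end regions at a start was 96.7% at a distance of 500 bp, 88.3% at 2.5 kb, 95.02% with a reciprocal overlap of 50% and 94.4% with lists of equal size. In the same order the median percentile within the whole list was 76.8, 71.3, 77.3 and 70.4 for Halo-Sox2, 83.2, 78.7, 83.8 and 79.7 for Halo-Sox2a and 82.7, 77.6, 83.4 and 82.1 for the control, for which the mean score of a region's peaks gave 79.964. Median width was 1060, 1033 and 1084 bp at 500 bp, at 2.5 kb and with lists of equal size.

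With lists of equal size the median rank differences were -2.71 (Halo-Sox2 minus control), -2.13 (Halo-Sox2a minus control) and -0.32 (Halo-Sox2 minus Halo-Sox2a). With percentiles within each whole list they were -4.19, 0.30 (the change of direction) and -4.74, with 480 regions higher with Halo-Sox2 than in the control, 624 lower with Halo-Sox2a than in the control, and 311 higher and 1537 lower with Halo-Sox2 than with Halo-Sox2a. These lists differ in length and in the regions they hold beside the shared ones. At thresholds of 10 and 30 points, 2252 and 400 regions were higher and 3178 and 489 lower for Halo-Sox2 against control, 1829 and 242 higher and 3279 and 537 lower for Halo-Sox2a against control, and 2760 and 443 higher and 2200 and 232 lower for Halo-Sox2 against Halo-Sox2a. At 2.5 kb, 1028 were higher with Halo-Sox2a than in the control.

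Alternatives for the highest decile, chosen after seeing the data, gave shares of 34.8%, 41.3% and 27.8% for Halo-Sox2, 43.6%, 50.3% and 43.8% for Halo-Sox2a and 48.0%, 55.5% and 49.3% for the control at 500 bp, at 2.5 kb and over all regions of each list. The GC box excess was 59.2 percentage points over promoters without a region and 21.6 over all promoters. The whole-list scale for gene lists was also added after seeing the data. Unknown depth limits every absent peak: it may lie just under a list's threshold.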
